A study of Mus musculus with 3 samples.

Results

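The cell cycle genes described here are 39 transcripts listed by symbol, 22 that peak in G2 and mitosis (the G2/M members) and 17 that work in or before DNA replication (the S members). All 39 had a probe among the 19070 features of the assay. The rule for choosing them used no measured value, but they were chosen with earlier results of these data known. Their UMIs (unique molecular identifiers, which count captured molecules) were summed over the cells of each marker-defined class in each of 3 libraries of wounded mouse skin. A cell was called cycling when Mki67 and Top2a together had at least 2 UMIs.

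The mice were female C57BL/6J at postnatal day 50. A 5 mm wound through the whole skin of the back was splinted open, and tissue with a 2 mm margin was taken after 5 days. There was 1 library per group: an untreated wound (titled Sham), a wound given 20 µL of gelatin methacryloyl hydrogel set with ultraviolet light for 1 min (GelMA), and a wound given that gel carrying apoptotic neutrophils (AN-GelMA). The number of mice per library is not in the labels, so mouse, piece of skin and treatment cannot be told apart, and the files of the AN-GelMA library carry the word heat, whose meaning the labels do not give. With 1 library per group there is no test between groups, and the 95% intervals in brackets cover counting error only.

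Where values follow each other by library, the order is untreated, GelMA, AN-GelMA. After filters 5725, 10682 and 9113 cells were analysed, with median depths of 1114, 1477 and 1116 UMIs. Between 94 and 135 cell barcodes were shared by each pair of libraries. Cells fell into 20 classes, each named for cells like that class by its markers, from a clustering that did not use the members. The GelMA library stood apart in its makeup: hair matrix cells were 12.4% of it, against 2.46% of the untreated and 0.647% of the AN-GelMA library. In that library the 8 markers of the inner root sheath, a hair-forming layer, were also high in classes that should lack them, with a summed level of 1201 CPM (UMIs scaled to a class total of 1000000) in fibroblasts, against 86.6 and 15.6 in the untreated and AN-GelMA libraries. In endothelial cells the values were 32.3, 773 and 10.6 CPM, and their part in the results below was not tested.

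A dividing cell first licenses its replication origins by loading the MCM helicase through Cdc6 and Cdt1, copies its DNA in S phase, and then passes through G2 into mitosis. E2F factors switch on the replication genes once the retinoblastoma proteins release them. The genes of G2 and mitosis are switched on later through MuvB complexes with B-Myb and FoxM1, which act at CHR elements, and through NF-Y, which binds CCAAT boxes. In skin, divisions are frequent in the hair matrix and the basal epidermis, and cells that leave those layers stop dividing and differentiate. A wound also sets fibroblasts, vessel cells and the epidermal edge dividing.

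Promoters of both groups are shown because the elements named above can be read in them. Promoters of 300 bases, from 250 before to 50 after a gene's start, came from RefSeq on build GRCm38.p6, and 32 of the 39 members were matched in 35 promoters. The words searched on both strands were TTTGGCGC, TTTCGCGC and TTTCCCGC for E2F, TTTGAA and TTTAAA for the CHR, and CCAAT for the NF-Y box. Capitals mark CHR and CCAAT words in the G2/M promoters and E2F words in the S promoters, in either strand. Left in lower case are 3 CCAAT words and 1 CHR word in Mcm5 and 2 CCAAT words in Mcm6. Coordinates are chr11:99024140-99024439 (minus strand) for Top2a, chr9:70421505-70421804 (minus) for Ccnb2, chr7:122159185-122159484 (plus) for Plk1, chr1:128359656-128359955 (minus) for Mcm6 and chr8:75109259-75109558 (plus) for Mcm5.
Top2a: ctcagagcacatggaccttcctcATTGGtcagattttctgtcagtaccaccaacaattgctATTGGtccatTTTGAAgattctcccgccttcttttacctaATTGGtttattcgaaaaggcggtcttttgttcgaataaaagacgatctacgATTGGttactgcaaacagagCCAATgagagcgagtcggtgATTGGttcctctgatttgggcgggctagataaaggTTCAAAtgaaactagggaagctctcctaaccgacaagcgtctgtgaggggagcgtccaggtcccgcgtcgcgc
Ccnb2: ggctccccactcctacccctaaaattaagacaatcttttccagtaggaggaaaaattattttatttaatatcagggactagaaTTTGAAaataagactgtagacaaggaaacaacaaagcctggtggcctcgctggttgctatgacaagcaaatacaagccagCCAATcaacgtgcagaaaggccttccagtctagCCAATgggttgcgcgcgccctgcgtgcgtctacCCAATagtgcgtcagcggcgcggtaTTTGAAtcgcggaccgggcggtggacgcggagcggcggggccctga
Plk1: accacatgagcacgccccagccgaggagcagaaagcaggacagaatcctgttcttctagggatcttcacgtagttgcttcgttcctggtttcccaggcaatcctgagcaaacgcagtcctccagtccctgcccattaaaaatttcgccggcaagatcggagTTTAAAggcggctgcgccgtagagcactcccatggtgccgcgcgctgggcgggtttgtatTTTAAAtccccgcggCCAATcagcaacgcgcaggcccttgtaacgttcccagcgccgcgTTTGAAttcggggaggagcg
Mcm6: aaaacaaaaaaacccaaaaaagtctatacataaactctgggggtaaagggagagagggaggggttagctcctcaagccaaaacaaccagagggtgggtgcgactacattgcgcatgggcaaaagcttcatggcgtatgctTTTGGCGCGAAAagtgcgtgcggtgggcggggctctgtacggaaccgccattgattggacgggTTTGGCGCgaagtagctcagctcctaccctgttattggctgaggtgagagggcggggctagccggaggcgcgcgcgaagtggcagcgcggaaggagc
Mcm5: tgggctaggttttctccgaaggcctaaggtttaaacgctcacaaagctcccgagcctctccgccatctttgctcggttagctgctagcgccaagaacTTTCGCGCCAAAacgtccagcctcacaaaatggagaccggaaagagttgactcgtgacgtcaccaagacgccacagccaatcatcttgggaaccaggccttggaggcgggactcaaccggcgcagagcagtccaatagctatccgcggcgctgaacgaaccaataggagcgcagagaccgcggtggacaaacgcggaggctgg

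A CHR word stood in 17 of 19 G2/M promoters (89.5%), against 27.6% of all 32851 promoters of that length and 31.2% of the S promoters. A CHR and a CCAAT word stood together in 84.2% of the G2/M promoters, 25% of the S promoters and 10.7% of all. A CCAAT word, with or without a CHR word, was frequent in both lists: 89.5% of G2/M and 68.8% of S promoters, against 37.4% of all. An E2F word stood in 7 of 16 S promoters (43.8%), 1 of 19 G2/M promoters (5.26%) and 1.84% of all promoters. Exceptions were Nusap1, with neither a CHR nor a CCAAT word, Birc5 without a CCAAT word and Bub1 without a CHR word. These are matches of letters, not shown binding sites, and the E2F words overlap each other on opposite strands in Mcm5 and Mcm6.

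The members were found in the same cells, which checks the label of the list. Among cells thinned to 700 UMIs each, so that depth is equal, another G2/M member than Mki67 or Top2a was detected in 748 of 811 cycling cells (92.2%) and in 2584 of 20235 cells without either gene (12.8%). The kinetochore protein Cenpf was detected in 15.8% of cycling and 0.628% of other cells, the spindle motor Kif11 in 38.2% and 1.95%. Over the 20 G2/M members not used in the threshold, the share was higher in cycling cells by a median of 16.9 times (lowest 4.75 for Ccnb1, highest 25.1 for Cenpf). The S members were spread wider. Their median was 2.51 times, from 1.40 for E2f1, a factor that starts replication genes, to 6.74 for Rrm2, the S-phase subunit of ribonucleotide reductase. Rrm1, the other subunit, reached 4.64 times and Uhrf1, which keeps DNA methylation through replication, 5.59 times. The threshold on Mki67 and Top2a thus separated cells by their other G2/M members more than by their S members.

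Hair matrix and precortex cells, the dividing pool that builds the hair, had the highest level of 17 of 22 G2/M members and 11 of 17 S members when the libraries were pooled. GelMA gave 1322 of the 1522 hair matrix cells, and in the untreated library pericytes had a higher summed G2/M level, 5026 CPM against 4457 in the hair matrix. Levels between genes are not compared, since probes differ. Top2a, which untangles replicated DNA, was at 521 CPM there and Mki67, a protein of dividing nuclei, at 259. Pericytes and smooth muscle were highest for Cenpe at 314 CPM, Prc1 at 259 and Tpx2 at 248, genes of the kinetochore and the spindle, and these rest on 86 to 109 UMIs each. Langerhans cells, the immune cells of the epidermis, were highest for Birc5 at 218 CPM, E2f1 at 101 and Ccne1 at 53.2. The last is cyclin E1, which starts S phase. These values rest on 86, 40 and 21 UMIs, and GelMA gave most member UMIs of the class (286, 860 and 304 by library). Skeletal muscle fibres do not divide, and the muscle cells of cluster 6, led by Myh2, give the background. With the libraries pooled they were at 16.1 CPM for Top2a, 12.4 for Mki67 and 2.48 for Cdc20, which activates the anaphase-promoting complex. GelMA gave 780 of the 1012 cells of this cluster. By library its summed G2/M members stood at 97.5 [53.3 to 164], 208 [184 to 234] and 121 [70.5 to 194] CPM. This background was thus higher in GelMA than untreated, while the intervals of the summed S members overlapped throughout. The part of this difference in the results below was not tested. Mcm7, a subunit of the MCM helicase, had a high background of 76.9 CPM in these muscle cells and 347 in the hair matrix. Ccnb1, cyclin B1, had only 64 UMIs in all cells, while Ccnb2, cyclin B2, had 2096.

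**Figure D1:**
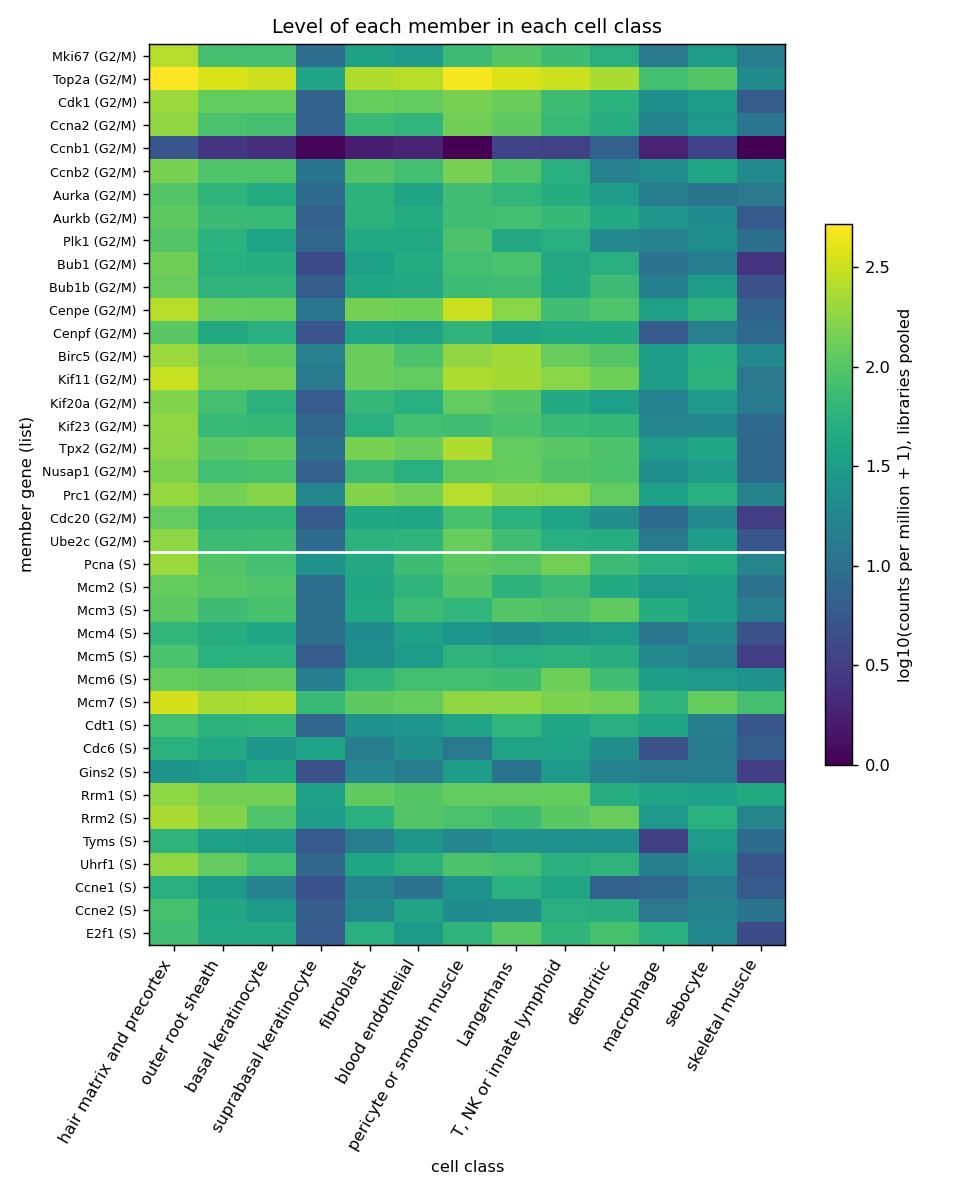
Level of each member (rows, G2/M above the white line and S below) in each of 13 classes (columns), libraries pooled, as log10 of CPM plus 1. The hair matrix column is the brightest for most rows, suprabasal keratinocytes and skeletal muscle are dark, and Ccnb1 is dark throughout.

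Across 40 class-by-library profiles of at least 100 cells, the summed S and G2/M members followed each other with a Pearson r of 0.947, over points that share libraries, depth and classes. Of the single members against the summed members, Top2a had an r of 0.98, Kif11 and Cenpe 0.97, and 3 stood low: Ccnb1 at 0.15, Cdc6 at 0.52 and Tyms, which makes thymidylate, at 0.61. Cdc6, which loads the helicase at origins, was at 29.7, 43.5 and 32.4 CPM in suprabasal keratinocytes. In basal keratinocytes, the dividing layer beneath, Cdc6 was at 15.3, 49.0 and 18.3 CPM. Among all other genes the profiles most like that of the summed members were Ankle1 (0.98), Kifc1 (0.98), Ncapg, Foxm1 and Kif15 (each 0.97), then Prr11, Hmmr, Dlgap5, Racgap1 and Cdca2 (0.96 to 0.97). Foxm1 encodes a factor that acts on the G2/M genes, Ncapg a condensin subunit, and Kifc1 and Kif15 spindle motors.

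Of all thinned cells, 4.42% [3.87 to 5.03] were cycling in the untreated wound, 3.81% [3.44 to 4.22] with GelMA and 2.93% [2.57 to 3.33] with AN-GelMA. The AN-GelMA share was 0.663 of the untreated one [0.549 to 0.801] and 0.769 of the GelMA one [0.649 to 0.910]. The latter, a log2 ratio of -0.38, was -0.0398 [-0.31 to 0.23] over cells of at least 1000 UMIs and -0.068 [-0.29 to 0.15] with cells thinned to 1000 UMIs, so that the interval then included 0. Before thinning the shares were 8.23%, 8.62% and 5.94%. GelMA, with the deepest cells, was thus the highest before and not after thinning to equal depth. These shares are over all classes, and at equal class makeup GelMA lay below AN-GelMA, as given below.

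The cycling cells also differed in class, which is given here before thinning. In the GelMA library 43.0% of cycling cells were hair matrix cells and 3.15% fibroblasts (150 and 10 of 358 after thinning). In the untreated library hair matrix cells were 11.3% and fibroblasts 23.1% of cycling cells, and in the AN-GelMA library 4.25% and 29.6%. Basal keratinocytes, the layer that renews the epidermis, gave 21.4%, 12.6% and 28.8% of cycling cells. Among thinned cells, weighting the untreated class shares by the class makeup of GelMA gives 7.32% cycling, and weighting the GelMA shares by the untreated makeup gives 2.94%. The AN-GelMA shares weighted by the GelMA makeup give 5.50%, covering 97.1% of those cells, against 3.81% for GelMA itself. The GelMA shares weighted by the AN-GelMA makeup give 2.67%, against 2.93% for AN-GelMA itself. GelMA thus lay below AN-GelMA at equal makeup, though the AN-GelMA hair matrix share rests on 9 of 50 cells. Weighted by the untreated makeup, the AN-GelMA shares give 3.43%, against 4.42% for the untreated library. Without the 3 classes that form hair, the shares were 4.03%, 2.90% and 2.84%.

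Within classes, hair matrix cells had the highest share: 26 of 111 in the untreated wound (23.4%), 150 of 1218 with GelMA (12.3%) and 9 of 50 with AN-GelMA (18%). The outer root sheath, the layer of the follicle that holds its stem cells, had 31 of 146 (21.2%), 80 of 1231 (6.50%) and 14 of 109 (12.8%). Thinning had left out 61 of 207, 195 of 1426 and 27 of 136 cells of this class. The GelMA share was 0.306 of the untreated one in the outer root sheath [0.200 to 0.480] and 0.526 in the hair matrix [0.345 to 0.831]. The outer root sheath shares depended on how the class was drawn. By a class per cell from marker scores, which shares 139 of its 281 untreated cells with the clustered class, the untreated share was 11.4% and the log2 ratio of GelMA over untreated was -0.86 in place of -1.71, and at clustering resolution 2 the GelMA share was 1.52%. The hair matrix class of AN-GelMA held 59 cells, and the markers of the hair matrix summed to 2588 CPM in it, against 4793 in the untreated and 6108 in the GelMA library. Not thinned, the outer root sheath shares were 21.7%, 10.5% and 20.6%, so that the untreated and AN-GelMA shares lay closer and the GelMA share lowest. At a threshold of 3 UMIs the log2 ratio of AN-GelMA over untreated in this class changed from -0.73 to 0.23.

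Basal keratinocytes were cycling in 5.52%, 6.83% and 5.35% of thinned cells, which differed by less than counting error: the GelMA share was 1.24 of the untreated one [0.808 to 1.91]. With cells of at least 1000 UMIs that log2 ratio went from 0.31 to -0.46. Suprabasal keratinocytes, which lie above the basal layer, were at 0.216%, 0.561% and 0.418%, near the skeletal muscle class at 0 of 137 cells, 0.407% and 0.680%. That class joins cluster 6 with cluster 24, led by Msln, Myl4 and Myh3. The only cycling AN-GelMA muscle cell lay in cluster 24 (1 of 51), while cluster 6 had 0 of 96 in that library. The zero in the untreated muscle allows a share of up to 2.19%, which is 3 counts of 137. Suprabasal clusters were not alike: cluster 20, led by Clca3a2, had 0 of 401, 7 of 632 (1.11%) and 7 of 735 (0.952%) cycling. Cluster 17, led by Il36rn, had 0 of 205, 0 of 274 and 0 of 418.

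Fibroblasts, the matrix-building cells of the dermis, were cycling in 57 of 971 cells (5.87%) untreated, 10 of 419 (2.39%) with GelMA and 77 of 1666 (4.62%) with AN-GelMA. Thinning had left out an uneven part of them as too shallow: 92 of 1063, 203 of 622 and 350 of 2016. The GelMA share was 0.407 of the untreated one [0.185 to 0.803] and AN-GelMA over GelMA was 1.94 [0.998 to 4.20]. Fibroblasts led by Col12a1 (cluster 2) had shares of 9.25%, 3.01% and 7.29%, and those led by Pi16 (cluster 0) 3.61%, 1.68% and 2.89%. Both lay in the same order, but the GelMA shares rest on 5 of 166 and 4 of 238 cells. In Col12a1 fibroblasts GelMA over untreated was 0.325 [0.0997 to 0.832] and AN-GelMA over GelMA 2.42 [0.959 to 7.84]. In Pi16 fibroblasts these ratios were 0.465 [0.112 to 1.46] and 1.72 [0.585 to 6.88]. Only the first of these intervals excludes 1. The third fibroblast cluster (cluster 3, led by Nos2) went another way, with 3.59%, 6.67% (1 of 15 cells) and 3.94%, and its summed G2/M members had a log2 ratio of 0.24 [0.04 to 0.43] in AN-GelMA over untreated, against -0.28 [-0.35 to -0.21] in all fibroblasts. With the cells of highest doublet score kept in, the log2 ratio of AN-GelMA over GelMA went from 0.95 to -0.24 and that of GelMA over untreated from -1.30 to -0.63.

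Blood endothelial cells were cycling in 8.51%, 3.24% and 4.26% of thinned cells, and the GelMA share was 0.380 of the untreated one [0.156 to 0.848]. Thinning had left out 109 of 391, 148 of 426 and 99 of 357 of these cells. The log2 ratio of GelMA over untreated went from -1.39 to -0.27 with cells of at least 1000 UMIs, and AN-GelMA over untreated from -1.0 to 0.01. In pericytes and smooth muscle the shares were 13.4%, 6.33% and 5.36%, on 3 to 11 cycling cells. Macrophages, at 0.868%, 2.34% and 1.09%, had few cycling cells in each library. Lymphoid cells at 5.88%, 3.95% and 8.24%, dendritic cells at 8.93%, 2.38% and 5.69% and Langerhans cells at 7.04%, 6.38% and 3.33% had intervals that overlapped throughout. Unthinned, the Langerhans shares were 9.62%, 18.9% and 9.52%, with the GelMA cells deepest.

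**Figure D2:**
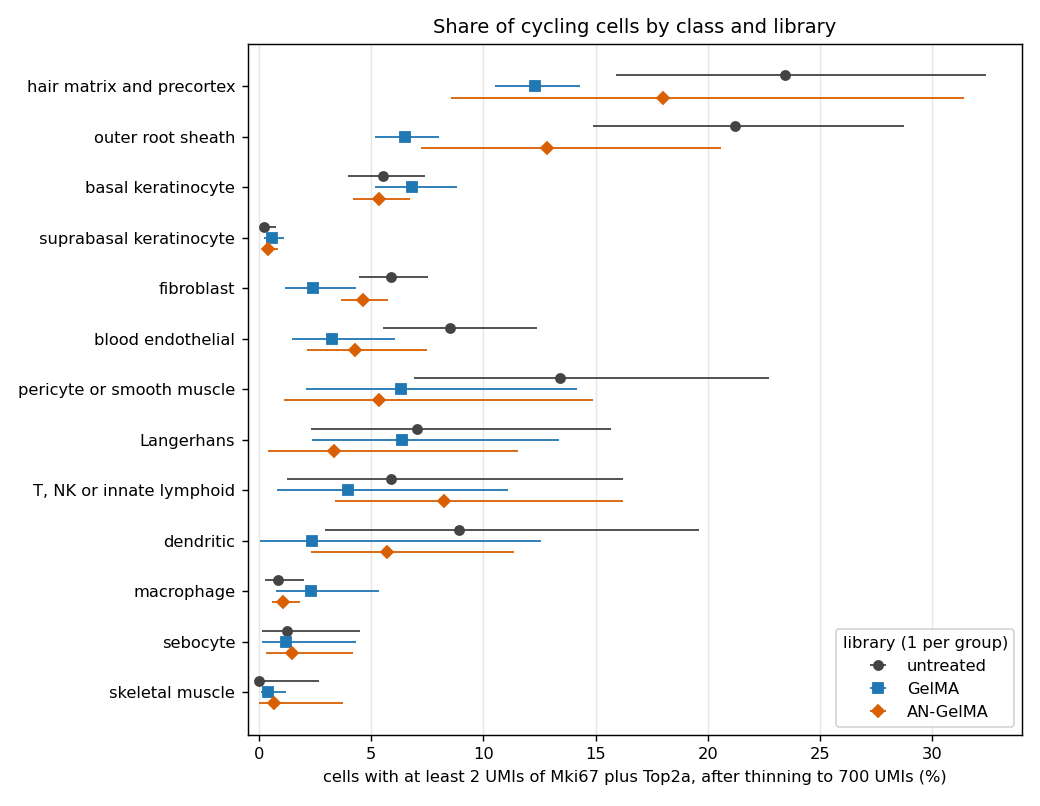
Share of cycling cells (horizontal axis, percent of cells thinned to 700 UMIs) in each class, with a point per library and exact 95% intervals for counting error. Hair matrix cells (12.3 to 23.4%) lie highest in each library, the outer root sheath spans 6.50 to 21.2%, and suprabasal keratinocytes and skeletal muscle lie near 0.

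Hair matrix and basal keratinocytes held more S UMIs per G2/M UMI than the fibroblasts of the untreated and AN-GelMA libraries. The number of S UMIs per G2/M UMI was 0.568, 0.521 and 0.540 in the hair matrix and 0.593, 0.688 and 0.606 in basal keratinocytes. In fibroblasts it was 0.363 [0.337 to 0.390] untreated, 0.566 [0.502 to 0.637] with GelMA and 0.356 [0.335 to 0.377] with AN-GelMA. Summed G2/M members stood at 2191, 1161 and 1803 CPM in fibroblasts and summed S members at 794, 657 and 641. The G2/M level was thus lowest in GelMA. The S level was also lower in GelMA than untreated, at 657 [597 to 721] against 794 [746 to 845]. GelMA and AN-GelMA, at 641 [609 to 673], did not differ in S level beyond counting error. In Pi16 fibroblasts the same quantity was 0.383, 0.916 and 0.392, and in Col12a1 fibroblasts 0.328, 0.469 and 0.335. Endothelial cells held 0.459, 0.658 and 0.509, pericytes 0.285, 0.417 and 0.422. Suprabasal keratinocytes held 1.16, 1.44 and 1.49 and muscle 1.26, 1.23 and 1.68. Not every class with few cycling cells had more S than G2/M UMIs: the GelMA inner root sheath, with 0.840% cycling, held 0.720, and the AN-GelMA macrophages, with 1.09%, held 0.864.

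**Figure D3:**
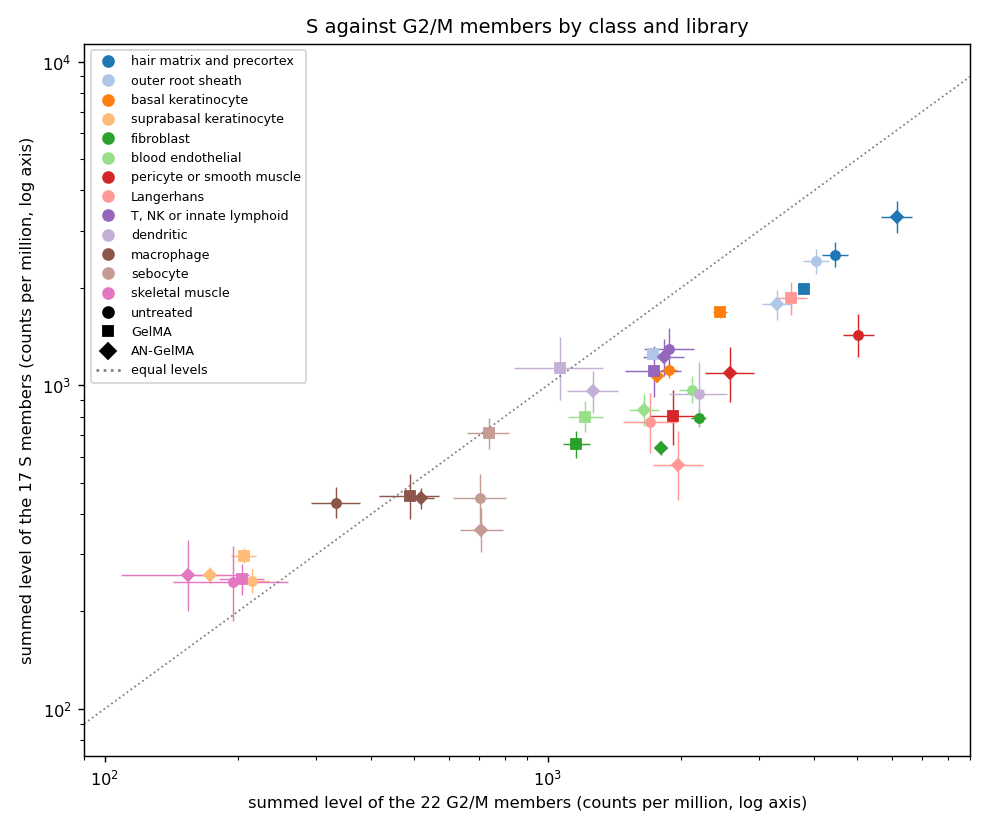
Summed level of the 17 S members (vertical, CPM, log axis) against that of the 22 G2/M members (horizontal, CPM, log axis), a point per library in each of 13 classes, with exact Poisson intervals and a line of equal UMIs, which is no comparison between genes since probes differ. Most of these classes lie below the line, and suprabasal keratinocytes, skeletal muscle, the untreated macrophages and the GelMA dendritic cells lie above it.

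The next paragraphs give the 39 members between libraries within a class. A member passed the filter with at least 20 UMIs over both libraries and is counted as higher, or as lower, when its CPM differ by at least 1.5-fold. The 3 comparisons share libraries and are not independent. Beside each count stands the share of all features past the same fold in the same direction.

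In fibroblasts, GelMA over untreated, 19 of 38 members that passed were lower, where 10.5% of all features were. They were 16 of 21 G2/M and 3 of 17 S members, with a median log2 ratio of -0.59 for the members against 0.08 for all features. Cdc20 was at 51.5, 11.9 and 44.0 CPM, a log2 ratio of -2.11 [-3.38 to -1.05] for GelMA over untreated. The checkpoint kinase Bub1b was at 46.0, 16.4 and 42.7 CPM, a log2 ratio of -1.49 [-2.57 to -0.55]. Tpx2, a spindle assembly factor, was at 185, 68.7 and 152 CPM, and Ccnb2 at 127, 53.7 and 92.8. In each of these GelMA was lowest. Ccna2, cyclin A2, was at 60.9, 62.7 and 70.2 CPM, and Mcm6, of the helicase, at 57.0, 59.7 and 56.7, with log2 ratios of 0.04 [-0.53 to 0.60] and 0.07 [-0.53 to 0.64] in GelMA over untreated, whose intervals include 0.

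In AN-GelMA over GelMA, 11 fibroblast members were higher, where 10.4% of all features were, and all 11 were G2/M members, with a log2 ratio of 1.88 [0.85 to 3.13] for Cdc20, 1.38 [0.48 to 2.43] for Bub1b and 1.14 [0.70 to 1.62] for Tpx2. The S member Ccne2, cyclin E2, was lower, where 17.5% of features were, at 25.4 CPM with GelMA and 14.4 with AN-GelMA. In AN-GelMA over untreated, 2 members were lower, where 6.24% of features were: Uhrf1 at -0.67 and Ccne2 at -0.80. The summed G2/M members had a log2 ratio of -0.92 [-1.03 to -0.80] in GelMA over untreated and 0.63 [0.52 to 0.75] in AN-GelMA over GelMA. The summed S members had -0.27 [-0.44 to -0.11] and -0.04 [-0.19 to 0.12]. With the highest doublet scores kept the 11 became 5, and with at least 1000 UMIs the 19 lower members became 12.

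Of the lists of other cell cycle genes in fibroblasts, GelMA over untreated, 9 of 11 kinetochore and checkpoint genes and 18 of 24 other spindle and cytokinesis genes were lower, where 10.5% of all features were. Espl1, the separase that parts sister chromatids, was at 50.7 and 13.4 CPM in the untreated and GelMA libraries, and Esco2, which sets sister chromatid cohesion, at 46.0 and 10.4. Of 20 replication fork genes 5 were lower and 1 higher, where 10.5% of all features were lower and 16.2% higher. Cdkn1c, the cyclin-dependent kinase inhibitor p57, went the other way with 38.2, 107 and 27.5 CPM.

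In basal keratinocytes the GelMA library was the highest. In GelMA over untreated 19 of 38 members were higher, where 13.9% of features were, among them 10 of 17 S and 9 of 21 G2/M members. Cdc6 was at 15.3, 49.0 and 18.3 CPM, a log2 ratio of 1.68 [0.90 to 2.53] for GelMA over untreated. Ccne1 was at 7.66, 24.5 and 13.1 CPM (1.68 [0.57 to 2.94]) and Cdt1, which also licenses origins, at 33.2, 99.7 and 47.2 (1.59 [1.06 to 2.15]). These S members were highest in GelMA, with the other libraries lower and closer to each other. Rrm2 and Mcm2 lay in the same way, Rrm2 at 68.9, 151 and 67.1 CPM and Mcm2 at 63.8, 140 and 79.1. Of the G2/M members Bub1 was at 30.6, 77.7 and 40.4 CPM and Kif20a, a motor of cytokinesis, at 45.9, 93.2 and 35.6, while Mki67 was at 83.4, 84.2 and 76.0, a log2 ratio of 0.01 [-0.40 to 0.43]. In AN-GelMA over GelMA 22 members were lower, where 14.4% of features were, 12 S and 10 G2/M members. AN-GelMA over untreated had 1 higher and 0 lower, where 3.64% and 5.17% of features were. The member higher was Ccne1, on 25 and 9 UMIs (0.77 [-0.37 to 2.06]). The untreated and AN-GelMA libraries thus lay near each other in this class.

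Of the other lists, 11 of 20 replication fork genes were higher in GelMA over untreated basal cells, where 13.9% of features were. Myc, a factor that drives growth, was at 93.6, 284 and 113 CPM. Cdc45, of the replicative helicase, was at 44.5 CPM with AN-GelMA and 114 with GelMA. In this class the inner root sheath markers summed to 144, 951 and 77 CPM, and their part was not tested.

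The outer root sheath of GelMA lay lowest. In GelMA over untreated 29 of 38 members were lower and 1, Tyms, was higher, where 17.3% of features were lower and 23.3% higher. Plk1, a kinase of mitotic entry, was at 147, 39.98 and 87.3 CPM, Top2a at 764, 300 and 570, and Mcm3 at 181, 60.2 and 87.3. The log2 ratio of GelMA over untreated was -1.88 [-2.50 to -1.22] for Plk1, -1.35 [-1.61 to -1.08] for Top2a and -1.59 [-2.13 to -1.01] for Mcm3, with GelMA the lowest each time. Tyms rests on 3 UMIs in the untreated library, with a log2 ratio of 1.199 [-0.41 to 3.51]. In AN-GelMA over GelMA 18 members were higher and 1, Cdc6, was lower, where 18.1% of features were higher and 22.7% lower, and 14 of the 18 were G2/M members. Cdc6 rests on 3 UMIs in AN-GelMA, with a log2 ratio of -1.41 [-3.72 to 0.19]. Prc1, which bundles the central spindle, was at 299, 105 and 313 CPM, a log2 ratio of 1.58 [1.14 to 2.00] for AN-GelMA over GelMA. In AN-GelMA over untreated 9 of 35 members were lower, where 12.7% of features were, among them Tpx2 at 265, 87.2 and 103 CPM. The summed G2/M members had a log2 ratio of -1.23 [-1.34 to -1.11] in GelMA over untreated and 0.93 [0.81 to 1.06] in AN-GelMA over GelMA, and by a class per cell -0.51 and 0.57. With cells of at least 1000 UMIs the 18 became 28. When the members were used in the clustering, 274 outer root sheath cells, 58 of them cycling, went to the hair matrix. Injury keratinocyte markers in the class summed to 343, 1707 and 457 CPM, suprabasal markers to 568, 1653 and 811 and upper follicle markers to 162, 523 and 411. Outer root sheath markers summed to 4288, 4267 and 4468 CPM. The part of the other markers in these results was not tested.

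In hair matrix cells 25 of 38 members were higher in AN-GelMA over GelMA and 1 lower, where 26.6% of features were higher and 21.9% lower. Rrm2 was at 435, 208 and 543 CPM, Ccna2 at 152, 177 and 373 and Mki67 at 205, 253 and 522. Their log2 ratios in AN-GelMA over GelMA were 1.38 [0.94 to 1.8], 1.07 [0.53 to 1.57] and 1.04 [0.59 to 1.46]. The AN-GelMA values rest on 59 cells and 93898 UMIs, in which 1 UMI is 10.6 CPM. Under median of ratios scaling the 25 became 14, and with the members and pathway genes kept in the clustering 7. The class joins cluster 4, led by Krt35, with cluster 31, led by hair keratin-associated genes, which holds 167 of the 1322 GelMA and 1 of the 59 AN-GelMA cells, and in cluster 4 alone the 25 became 16. Outer root sheath markers in the class summed to 368 CPM with GelMA and 1193 with AN-GelMA, and inner root sheath markers to 2334 and 543, and their part was not tested. In GelMA over untreated 8 members were lower and 5 higher, where 15.6% and 24.5% of features were. Tpx2 was lower, at 336 and 160 CPM, and Cdc6 higher, at 26.2 and 53.6, on 5 UMIs in the untreated library (1.03 [-0.23 to 2.68]). In AN-GelMA over untreated 18 of 34 were higher, where 16.9% of features were. Cdkn1a, the inhibitor p21, was at 430, 408 and 117 CPM.

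In blood endothelial cells 21 of 34 members were lower and 1 higher in GelMA over untreated, where 12.3% of features were lower and 16.9% higher, with 17 of 21 G2/M and 4 of 13 S members. Top2a was at 337, 164 and 296 CPM, Cenpe at 187, 88.4 and 108, and Mcm7 at 94.6, 149 and 108. The log2 ratio of GelMA over untreated was -1.04 [-1.48 to -0.61] for Top2a, -1.08 [-1.70 to -0.49] for Cenpe and 0.66 [0.06 to 1.27] for Mcm7, the 1 member that was higher. In AN-GelMA over GelMA 9 were higher and 2 lower, where 13.3% of features were higher and 16.2% lower. Cdk1, the kinase that starts mitosis, was at 136, 68.2 and 140 CPM, a log2 ratio of 1.04 [0.34 to 1.76] for AN-GelMA over GelMA. The 21 became 10 with the highest doublet scores kept and 7 with at least 1000 UMIs.

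**Figure D4:**
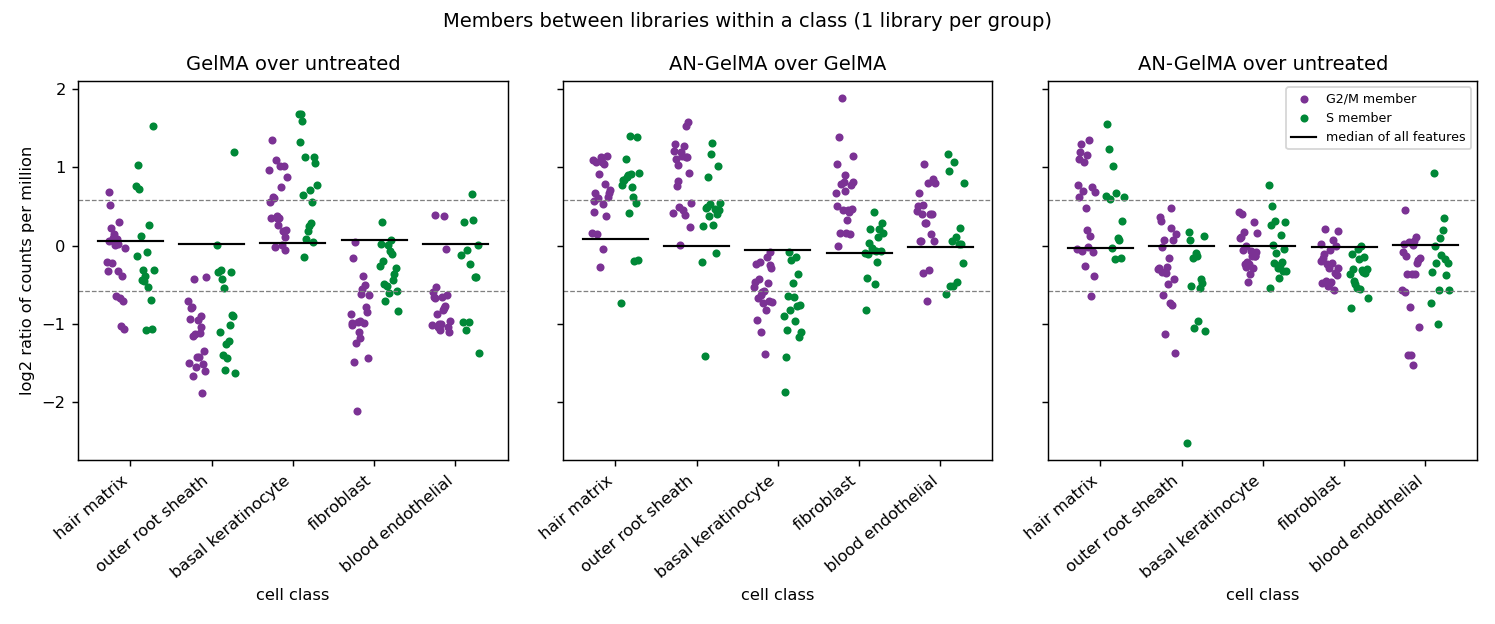
Log2 ratio of CPM of each member (point) between libraries in 5 classes, with G2/M and S members side by side, dashed lines at 1.5-fold and a black bar for the median of all features. In GelMA over untreated, fibroblast, endothelial and outer root sheath members lie mostly below 0 and basal keratinocyte members mostly above.

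Pericytes, Langerhans cells and macrophages are smaller classes. In pericytes 20 of 24 members were lower in GelMA over untreated, where 21.3% of features were, and the summed G2/M members stood at 5026, 1922 and 2578 CPM. In that class inner root sheath markers summed to 33.5 CPM untreated and 1197 with GelMA, suprabasal markers to 427 and 1799.5 and outer root sheath markers to 75.4 and 343, and their part was not tested. In Langerhans cells 20 of 26 were higher in GelMA over untreated, where 20.8% of features were, and the summed G2/M members stood at 1706, 3538 and 1972 CPM. The Langerhans class of each library also held basal keratinocyte markers, at 3083, 878 and 5815 CPM, and inner root sheath markers at 113, 2302 and 50.1, and their part was not tested. In macrophages 16 of 33 members were higher in AN-GelMA over untreated, where 7.66% of features were, at a low level of 333, 488 and 517 CPM for the summed G2/M members. The class joins cluster 14, led by Mrc1, with cluster 21, led by Mmp12, which holds 258 of the 641 untreated and 384 of the 1509 AN-GelMA cells. Summed G2/M members stood at 427 CPM untreated and 659 with AN-GelMA in cluster 14, and at 232 and 208 in cluster 21.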

How the data were processed

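Deposited matrices hold counts, which are UMI counts per feature and cell barcode made by the authors from a 10x Genomics GEM-X Flex v2 assay, in which probe pairs bind transcripts in cells. Per the labels' protocols, tissue was in fixative for 24 h before Liberase (5 mg/mL, 2 h, 37 °C) released the cells. Cell Ranger (10.0.0) and the builds GRCm39 and mm39 are named per the file headers and the submitters' processing notes, while probe set and cell calling are not stated there.

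The 3 libraries held 6073, 11449 and 9648 barcodes (8945496, 21613482 and 14156692 UMIs) for untreated, GelMA and AN-GelMA. Limits of 400 UMIs and 250 genes at the least and 10% mitochondrial UMIs at the most removed 34, 147 and 36. Scrublet called 0 doublets, so the 5% of cells with the highest score per library were removed in its place (314, 620 and 499). Log counts were clustered with Scanpy 1.11.5 and the Leiden method (igraph 0.11.9), resolution 1, on 2000 variable genes without the 39 members and 102 pathway genes, 30 components and 15 neighbours, with no integration. Of 34 clusters 29 were named from 24 marker sets and 969 cells stayed unnamed. Members, gene lists and classes were chosen with earlier results of these data known.

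Counts were summed by class and library and divided by the total, giving CPM. Shares have exact Clopper-Pearson intervals, levels exact Poisson intervals and ratios exact conditional intervals (SciPy 1.17.1). A count of 0 was taken as 3 UMIs, giving bounds. Shares of cycling cells used cells thinned to 700 UMIs, which left out 730, 1296 and 1204 shallower cells. The part left out differed between classes and, within a class, between libraries. There are no p-values, since cells are not replicates. Only the 1.5-fold call and the intervals of ratios and shares were tested on simulated counts, which held counting error alone. Filtering, doublet removal, clustering, class naming and thinning were not simulated, nor was spread between libraries. Promoter words were counted in RefSeq promoters on GRCm38.p6, while the counts were made on GRCm39, so coordinates belong to the former build.

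Genes named are the 39 members. Of 9 pathway lists, a gene could be named at a ratio past 1.5 whose counting interval excludes 1, with at least 50 UMIs over both libraries, up to 5 per class and comparison in order of size, and as levels the 3 highest of each list. Of other genes, the 10 whose profile of log2(CPM + 10) had the highest Pearson r with the summed members were named.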

Additional observations from a re-analysis of the deposited data

Results flagged for a closer look

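The same contrast had opposite signs in different cell classes, each beyond counting error. For GelMA over untreated the log2 ratio of the summed G2/M members was 0.38 in basal keratinocytes, -1.23 in the outer root sheath, -0.23 in the hair matrix, -0.92 in fibroblasts, -0.80 in endothelial cells. For AN-GelMA over GelMA the log2 ratio of the summed G2/M members was -0.48 in basal keratinocytes, 0.93 in the outer root sheath, 0.69 in the hair matrix, 0.63 in fibroblasts, 0.44 in endothelial cells. For AN-GelMA over untreated the log2 ratio of the summed G2/M members was -0.093 in basal keratinocytes, -0.29 in the outer root sheath, 0.46 in the hair matrix, -0.28 in fibroblasts, -0.36 in endothelial cells. With 1 library per group the difference between classes was not tested, and the 3 comparisons share libraries. The basal keratinocyte value of AN-GelMA over untreated turned to 0.13 with the members and pathway genes used in the clustering and to 0.038 over cells of at least 1000 UMIs. The outer root sheath value turned to 0.057 by a class per cell. Beside these values, the summed inner root sheath markers were higher in GelMA than in the other libraries in fibroblasts, endothelial cells, basal keratinocytes and the outer root sheath, and their part was not tested.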

How the results depend on the processing

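No paired analysis was possible because only 1 library exists per group here. The 5 classes and 8 counts followed here (hair matrix, basal keratinocyte, outer root sheath, fibroblast and blood endothelial cells) were chosen with their values known, and the 3 settings on single clusters, like the values of clusters 3, 14 and 21, were added after seeing the data. A value is given where it left the counting interval of the reported value, or, for a count, where it changed by more than 1.5 times. Each family of values is given by setting, with the library or comparison in brackets. Of the 582 alternative values of log2 ratios, 49 had the other sign than the reported value. In 3 of these the reported ratio was past 1.5-fold, all of cycling shares: fibroblasts in AN-GelMA over GelMA, endothelium and outer root sheath in AN-GelMA over untreated. Depth and cell number both limit the hair matrix of AN-GelMA, where 1 UMI is 10.6 CPM and shares rest on 50 thinned cells. Scrublet called 0 cells, so doublets may remain. The cause of each change was not tested.

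For the cycling share in percent, the values that moved were these. Thinned to 1000 UMIs it was over all cells 6.59 (untreated), 5.43 (GelMA), 5.18 (AN-GelMA), and in hair matrix 19.7 (GelMA), and in basal 9.67 (untreated), 9.59 (AN-GelMA). In outer root sheath 30.8 (untreated), 8.4 (GelMA), 27.3 (AN-GelMA), and in fibroblasts 10.2 (untreated), 7.92 (AN-GelMA), and in endothelium 6.15 (GelMA), 10.6 (AN-GelMA) under that setting. Without thinning it was over all cells 8.23 (untreated), 8.62 (GelMA), 5.94 (AN-GelMA), and in hair matrix 37.6 (untreated), 29.95 (GelMA), 39 (AN-GelMA), and in basal 13 (untreated), 13.3 (GelMA), 11.2 (AN-GelMA). In outer root sheath 10.5 (GelMA), and in fibroblasts 10.3 (untreated), 4.66 (GelMA), 7.94 (AN-GelMA), and in endothelium 8.96 (AN-GelMA) under that setting. At a threshold of 1 UMI it was over all cells 10.5 (untreated), 9.91 (GelMA), 7.62 (AN-GelMA), and in hair matrix 39.6 (untreated), 29.2 (GelMA), 38 (AN-GelMA), and in basal 13.7 (untreated), 15.2 (GelMA), 13 (AN-GelMA). In outer root sheath 36.3 (untreated), 13.6 (GelMA), 24.8 (AN-GelMA), and in fibroblasts 13.6 (untreated), 7.88 (GelMA), 10.5 (AN-GelMA), and in endothelium 16 (untreated), 7.19 (GelMA), 14 (AN-GelMA) under that setting. At a threshold of 3 UMIs it was over all cells 1.76 (untreated), 1.72 (GelMA), 1.09 (AN-GelMA), and in hair matrix 9.01 (untreated), 5.17 (GelMA), and in basal 3.1 (untreated), 2.58 (GelMA), 1.78 (AN-GelMA). In outer root sheath 5.48 (untreated), 3.57 (GelMA), 6.42 (AN-GelMA), and in fibroblasts 2.06 (untreated), 1.62 (AN-GelMA), and in endothelium 3.9 (untreated), 1.08 (GelMA), 1.94 (AN-GelMA) under that setting. By the other 20 G2/M members it was over all cells 12.6 (untreated), 11 (GelMA), 8.95 (AN-GelMA), and in hair matrix 45.9 (untreated), 36 (GelMA), 44 (AN-GelMA), and in basal 14 (untreated), 19.6 (GelMA), 13.3 (AN-GelMA). In outer root sheath 39 (untreated), 14.6 (GelMA), 25.7 (AN-GelMA), and in fibroblasts 19.2 (untreated), 9.79 (GelMA), 15.6 (AN-GelMA), and in endothelium 23 (untreated), 10.4 (GelMA), 17.1 (AN-GelMA) under that setting. With cells of at least 1000 UMIs it was over all cells 3.62 (AN-GelMA), and in basal 8.51 (untreated), and in fibroblasts 6.2 (AN-GelMA). In endothelium 6.15 (GelMA) under that setting. With a class per cell it was in hair matrix 14.8 (untreated), 8.09 (GelMA), and in basal 4.77 (GelMA), and in outer root sheath 11.4 (untreated). At resolution 2 it was in outer root sheath 1.52 (GelMA). In cluster 0 alone it was in fibroblasts 3.61 (untreated), 2.89 (AN-GelMA). In cluster 2 alone it was in fibroblasts 9.25 (untreated), 7.29 (AN-GelMA). With the highest doublet scores kept it was in fibroblasts 3.35 (AN-GelMA).

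For the log2 ratio of cycling shares, the values that moved were these. Over cells of at least 1000 UMIs it was over all cells -0.0398 (AN-GelMA over GelMA), and in basal -0.46 (GelMA over untreated), and in endothelium 0.0089 (AN-GelMA over untreated). Thinned to 1000 UMIs it was over all cells -0.068 (AN-GelMA over GelMA), and in basal 0.19 (AN-GelMA over GelMA). At a threshold of 3 UMIs it was over all cells -0.66 (AN-GelMA over GelMA), and in basal -0.79 (AN-GelMA over untreated), and in outer root sheath 0.23 (AN-GelMA over untreated), -0.62 (GelMA over untreated). Without thinning it was over all cells 0.068 (GelMA over untreated), and in outer root sheath -1.05 (GelMA over untreated). By a class per cell it was in outer root sheath -0.86 (GelMA over untreated). Keeping the highest doublet scores it was in fibroblasts -0.88 (AN-GelMA over untreated), -0.24 (AN-GelMA over GelMA).

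For the log2 ratio of summed S members, the values that moved were these. With members kept in the clustering it was in hair matrix 0.076 (AN-GelMA over untreated), 0.39 (AN-GelMA over GelMA), and in basal 0.043 (AN-GelMA over untreated), and in outer root sheath -1.12 (GelMA over untreated), 0.75 (AN-GelMA over GelMA). With a class per cell it was in hair matrix 0.96 (AN-GelMA over untreated), -0.12 (GelMA over untreated), 1.07 (AN-GelMA over GelMA), and in outer root sheath -0.79 (GelMA over untreated), 0.34 (AN-GelMA over GelMA), and in fibroblasts -0.022 (GelMA over untreated), -0.36 (AN-GelMA over GelMA). Under median of ratios scaling it was in hair matrix 0.47 (AN-GelMA over GelMA). In cluster 4 alone it was in hair matrix 0.54 (AN-GelMA over GelMA). With cells of at least 1000 UMIs it was in hair matrix -0.22 (GelMA over untreated), and in basal -0.57 (AN-GelMA over GelMA), and in outer root sheath -0.14 (AN-GelMA over untreated), 0.75 (AN-GelMA over GelMA). In fibroblasts -0.18 (AN-GelMA over untreated), -0.075 (GelMA over untreated), and in endothelium -0.019 (GelMA over untreated) under that setting. With cells thinned to 700 UMIs it was in hair matrix 0.13 (AN-GelMA over untreated), -0.64 (GelMA over untreated), and in fibroblasts -0.46 (GelMA over untreated). With the highest doublet scores kept it was in basal 0.064 (AN-GelMA over untreated), 0.72 (GelMA over untreated), and in outer root sheath -0.79 (GelMA over untreated). At resolution 0.5 it was in outer root sheath -1.16 (GelMA over untreated), 0.69 (AN-GelMA over GelMA). In cluster 0 alone it was in fibroblasts -0.62 (GelMA over untreated), 0.21 (AN-GelMA over GelMA). In cluster 2 alone it was in fibroblasts -0.19 (AN-GelMA over untreated).

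For the log2 ratio of summed G2/M members, the values that moved were these. With members kept in the clustering it was in hair matrix 0.15 (AN-GelMA over untreated), 0.38 (AN-GelMA over GelMA), and in basal 0.13 (AN-GelMA over untreated), -0.22 (AN-GelMA over GelMA), and in outer root sheath -1.58 (GelMA over untreated), 1.43 (AN-GelMA over GelMA). Over cells of at least 1000 UMIs it was in hair matrix 0.83 (AN-GelMA over GelMA), and in basal 0.038 (AN-GelMA over untreated), -0.28 (AN-GelMA over GelMA), and in outer root sheath -0.52 (AN-GelMA over untreated), -1.64 (GelMA over untreated), 1.12 (AN-GelMA over GelMA). In fibroblasts -0.16 (AN-GelMA over untreated), -0.704 (GelMA over untreated), and in endothelium -0.18 (AN-GelMA over untreated), -0.38 (GelMA over untreated), 0.21 (AN-GelMA over GelMA) under that setting. With cells thinned to 700 UMIs it was in hair matrix 0.074 (AN-GelMA over untreated), -0.47 (GelMA over untreated), 0.54 (AN-GelMA over GelMA), and in outer root sheath -0.55 (AN-GelMA over untreated), -1.36 (GelMA over untreated), and in endothelium -0.999 (GelMA over untreated). By a class per cell it was in hair matrix 0.78 (AN-GelMA over untreated), -0.38 (GelMA over untreated), 1.16 (AN-GelMA over GelMA), and in basal -0.22 (AN-GelMA over untreated), 0.11 (GelMA over untreated), -0.33 (AN-GelMA over GelMA), and in outer root sheath 0.057 (AN-GelMA over untreated), -0.51 (GelMA over untreated), 0.57 (AN-GelMA over GelMA). In fibroblasts -0.68 (GelMA over untreated), 0.397 (AN-GelMA over GelMA), and in endothelium -0.56 (GelMA over untreated), 0.23 (AN-GelMA over GelMA) under that setting. Under median of ratios scaling it was in hair matrix -0.13 (GelMA over untreated), 0.42 (AN-GelMA over GelMA), and in outer root sheath -1.09 (GelMA over untreated), 0.78 (AN-GelMA over GelMA), and in fibroblasts 0.76 (AN-GelMA over GelMA). In cluster 4 alone it was in hair matrix 0.47 (AN-GelMA over GelMA). At resolution 2 it was in hair matrix 0.29 (AN-GelMA over untreated), -0.37 (GelMA over untreated), and in basal 0.28 (GelMA over untreated), -0.36 (AN-GelMA over GelMA). At resolution 0.5 it was in basal 0.23 (GelMA over untreated), -0.36 (AN-GelMA over GelMA), and in outer root sheath -1.52 (GelMA over untreated), 1.18 (AN-GelMA over GelMA), and in fibroblasts -1.04 (GelMA over untreated), 0.78 (AN-GelMA over GelMA). Keeping the highest doublet scores it was in basal -0.0023 (AN-GelMA over untreated), 0.23 (GelMA over untreated), -0.23 (AN-GelMA over GelMA), and in outer root sheath -1.01 (GelMA over untreated), 0.68 (AN-GelMA over GelMA), and in fibroblasts -0.65 (GelMA over untreated), 0.36 (AN-GelMA over GelMA). In endothelium -0.496 (GelMA over untreated), 0.071 (AN-GelMA over GelMA) under that setting. In cluster 0 alone it was in fibroblasts -0.45 (AN-GelMA over untreated), -1.88 (GelMA over untreated), 1.43 (AN-GelMA over GelMA). In cluster 2 alone it was in fibroblasts -0.65 (GelMA over untreated), 0.43 (AN-GelMA over GelMA).

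For the number of S per G2/M UMI, the values that moved were these. With cells of at least 1000 UMIs it was in hair matrix 0.502 (untreated), and in basal 0.549 (untreated), 0.546 (AN-GelMA), and in outer root sheath 0.41 (untreated). In fibroblasts 0.313 (untreated), 0.484 (GelMA), 0.309 (AN-GelMA) under that setting. With cells thinned to 700 UMIs it was in hair matrix 0.64 (untreated), 0.566 (GelMA), 0.667 (AN-GelMA), and in basal 0.735 (untreated), 0.801 (GelMA), 0.731 (AN-GelMA), and in outer root sheath 0.655 (AN-GelMA). In fibroblasts 0.428 (untreated), 0.41 (AN-GelMA) under that setting. With a class per cell it was in hair matrix 0.432 (untreated), and in basal 0.528 (untreated), 0.728 (GelMA), and in outer root sheath 0.776 (untreated), 0.639 (GelMA). In fibroblasts 0.318 (AN-GelMA), and in endothelium 0.563 (GelMA) under that setting. Without Pcna, Mki67 and Top2a it was in hair matrix 0.684 (untreated), 0.581 (GelMA), 0.645 (AN-GelMA), and in basal 0.711 (untreated), 0.786 (GelMA), 0.725 (AN-GelMA), and in outer root sheath 0.733 (untreated), 0.846 (GelMA), 0.665 (AN-GelMA). In fibroblasts 0.403 (untreated), 0.643 (GelMA), 0.393 (AN-GelMA), and in endothelium 0.518 (untreated) under that setting. At resolution 2 it was in hair matrix 0.58 (GelMA), and in basal 0.547 (untreated), and in outer root sheath 0.503 (GelMA). With the highest doublet scores kept it was in basal 0.793 (GelMA), and in outer root sheath 0.675 (GelMA). With members kept in the clustering it was in basal 0.777 (GelMA), and in outer root sheath 0.767 (GelMA). In cluster 2 alone it was in fibroblasts 0.328 (untreated), 0.469 (GelMA), 0.335 (AN-GelMA). In cluster 0 alone it was in fibroblasts 0.916 (GelMA), 0.392 (AN-GelMA).

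For the log2 ratio of S per G2/M, the values that moved were these. By a class per cell it was in hair matrix 0.26 (GelMA over untreated), and in basal 0.19 (AN-GelMA over untreated), 0.46 (GelMA over untreated), and in outer root sheath -0.51 (AN-GelMA over untreated), -0.28 (GelMA over untreated). At resolution 0.5 it was in basal 0.36 (GelMA over untreated), -0.31 (AN-GelMA over GelMA). Keeping the highest doublet scores it was in basal 0.49 (GelMA over untreated), -0.42 (AN-GelMA over GelMA). With members kept in the clustering it was in basal 0.35 (GelMA over untreated), -0.43 (AN-GelMA over GelMA), and in outer root sheath 0.46 (GelMA over untreated), -0.67 (AN-GelMA over GelMA). At resolution 2 it was in basal 0.36 (GelMA over untreated). With cells thinned to 700 UMIs it was in outer root sheath 0.11 (AN-GelMA over untreated), -0.19 (AN-GelMA over GelMA). Over cells of at least 1000 UMIs it was in outer root sheath 0.38 (AN-GelMA over untreated), 0.75 (GelMA over untreated). In cluster 0 alone it was in fibroblasts 1.26 (GelMA over untreated), -1.22 (AN-GelMA over GelMA).

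For the count of members higher, the values that moved were these. With members kept in the clustering it was in hair matrix 7 (AN-GelMA over GelMA). Under median of ratios scaling it was in hair matrix 14 (AN-GelMA over GelMA). At a fold of 2 it was in hair matrix 9 (AN-GelMA over GelMA), and in basal 11 (GelMA over untreated), and in fibroblasts 4 (AN-GelMA over GelMA). In cluster 4 alone it was in hair matrix 16 (AN-GelMA over GelMA). With cells of at least 1000 UMIs it was in outer root sheath 28 (AN-GelMA over GelMA). With the highest doublet scores kept it was in fibroblasts 5 (AN-GelMA over GelMA). In cluster 0 alone it was in fibroblasts 20 (AN-GelMA over GelMA).

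For the count of members lower, the values that moved were these. At a fold of 2 it was in basal 7 (AN-GelMA over GelMA), and in fibroblasts 7 (GelMA over untreated), and in endothelium 7 (GelMA over untreated). Over cells of at least 1000 UMIs it was in fibroblasts 12 (GelMA over untreated), and in endothelium 7 (GelMA over untreated). Keeping the highest doublet scores it was in endothelium 10 (GelMA over untreated). By a class per cell it was in endothelium 11 (GelMA over untreated). At a minimum of 50 UMIs it was in endothelium 11 (GelMA over untreated).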
